A study of Mus musculus with 12 samples.

Results

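The genes of fatty acid oxidation are described here in mouse neural stem cells (NSCs) in 1 proliferating and 2 quiescent culture states. The list holds 38 genes chosen by name from knowledge of the pathway, out of 17365 genes in the count table. All 38 were present, and all 38 passed the filter on low counts that kept 13312 genes for testing and left out 4053. RNA was sequenced in 12 libraries, 4 for each condition: EGF/FGF, in which the cells proliferate, BMP, and BMP/FGF. The authors term the BMP cells dormant quiescent (d-qNSCs) and the BMP/FGF cells primed quiescent (p-qNSCs). Every factor named was given at 10 ng/ml, the treatment lasted 3 days, and cells were plated at low density. Both quiescent conditions were without EGF, and BMP was also without added FGF. A comparison with EGF/FGF thus changes more than 1 factor, and the parts of these factors cannot be told apart. Only BMP/FGF against BMP changes FGF alone. In each condition 2 libraries came from the ANS4 line, made from MF1 mice, and 2 from the BL6 line, made from C57BL/6 mice. The donors were 6 to 8 weeks old and cells were used below passage 10. No gene was deleted and no transgene is named for these libraries. Each genotype is thus 1 cultured line, and p-values measure the spread between repeat cultures of those lines and not between animals. In the tests over both lines, that spread also holds any difference between the lines in their response.

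Fatty acids are used for energy by a fixed series of steps. An acyl-CoA synthetase activates the fatty acid, the carnitine shuttle carries it across the mitochondrial membranes, and a set of enzymes then removes acetyl-CoA units from the chain in repeated rounds, while very long and branched chains are first shortened in peroxisomes. The electrons leave through the electron transfer flavoprotein, and nuclear receptors of the PPAR family and the coactivator PGC-1alpha set the transcription of many of these enzymes. In the adult brain, fatty acid oxidation is known as a property of quiescent NSCs as well as of astrocytes.

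The promoters of 4 members are shown because the results below turn on these genes: Pdk4 had the largest rise, Acsl3 and Acsl4 are paralogs that moved in opposite directions, and Cpt1a codes for the enzyme usually named as the rate-limiting step. Each sequence is from RefSeq on GRCm38.p6, runs from 250 bases before to 50 bases after the start, and is written 5′ to 3′ on the strand of the gene. Capitals mark matches to the motifs searched.
Pdk4, chr6:5496229-5496528, minus strand: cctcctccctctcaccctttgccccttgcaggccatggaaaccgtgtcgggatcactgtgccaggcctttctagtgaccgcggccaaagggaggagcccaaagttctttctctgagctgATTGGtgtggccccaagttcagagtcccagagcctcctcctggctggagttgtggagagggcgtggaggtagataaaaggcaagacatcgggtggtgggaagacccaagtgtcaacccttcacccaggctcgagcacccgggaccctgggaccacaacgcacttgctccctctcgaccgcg
Acsl3, chr1:78657575-78657874, plus strand: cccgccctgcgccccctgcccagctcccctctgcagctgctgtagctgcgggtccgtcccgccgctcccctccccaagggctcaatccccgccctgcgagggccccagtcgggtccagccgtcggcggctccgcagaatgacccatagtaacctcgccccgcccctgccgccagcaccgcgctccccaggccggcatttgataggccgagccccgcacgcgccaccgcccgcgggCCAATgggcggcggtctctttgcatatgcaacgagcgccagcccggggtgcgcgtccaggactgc
Acsl4, chrX:142390486-142390785, minus strand: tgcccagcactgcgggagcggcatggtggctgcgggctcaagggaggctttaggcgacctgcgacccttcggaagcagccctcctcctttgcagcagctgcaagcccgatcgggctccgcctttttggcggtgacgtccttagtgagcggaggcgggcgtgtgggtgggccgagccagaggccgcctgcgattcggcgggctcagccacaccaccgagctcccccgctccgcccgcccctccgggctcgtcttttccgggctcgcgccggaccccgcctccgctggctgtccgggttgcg
Cpt1a, chr19:3323051-3323350, plus strand: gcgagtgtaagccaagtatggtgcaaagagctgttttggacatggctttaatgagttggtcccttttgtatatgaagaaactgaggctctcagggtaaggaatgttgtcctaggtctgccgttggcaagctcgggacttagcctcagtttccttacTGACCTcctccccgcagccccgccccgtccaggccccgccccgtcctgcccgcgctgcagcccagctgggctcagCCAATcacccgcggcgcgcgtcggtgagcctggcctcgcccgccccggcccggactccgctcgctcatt

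Promoters were found for 32 of the 38 members, with 35 promoters in all since some genes have more than 1 start. Both strands were searched for 6 motifs, of which the single AGGTCA is contained in the direct repeat. The direct repeat of AGGTCA with 1 base between the copies, bound by PPAR with its RXR partner, was in 0 of the 35 promoters and in 0.0396% of 32851 promoters of the same length. AGGTCA alone was in 6 promoters (17.1%, against 16.3% of all), among them that of Cpt1a, 94 bases before the start on the opposite strand. The FOXO motif TGTTTAC and the TATA motif TATAAA were in 0 of the 35, against 3.65% and 13.6% of all promoters. The SMAD palindrome GGCGCC was in 6 (17.1%, against 11.9%), in Acads, Acsl1, Decr2, Etfdh, Ppara and Ppard. The CCAAT motif was in 16 (45.7%, against 37.4%). It lay 15 bases before the start of Acsl3, 19 bases before that of Cpt1a and 131 bases before that of Pdk4, there on the opposite strand. None of the 6 motifs was in the Acsl4 window. These are matches of letters in a short window, and binding was not measured.

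The libraries were close in depth, with 18069052 to 19451818 estimated counts each. Levels are given as CPM, counts scaled by library size, after TMM scaling for composition. Where a level is given for every library, the order is ANS4 replicates 1 and 2, then BL6 replicates 1 and 2. The NSC label was checked on 8 marker genes, all of them present, with a summed level of 4925 to 5449 CPM in EGF/FGF, 8777 to 9882 under BMP, and 9575 to 10451 under BMP/FGF. Vim, at means of 2692, 4685 and 4735 CPM, and Slc1a3, at 1182, 3056 and 3692, made up most of that sum in each condition. In both quiescent states 6 of the 8 were higher, while Nes fell from a mean of 569 CPM to 126 and 115 and Hes5 from 9.24 to 4.01 and 6.80. Between the quiescent states 2 of the 8 were higher in BMP/FGF and 1 was lower. The lower one was Prom1, at means of 55.0 CPM in BMP and 28.0 in BMP/FGF. The 7 cycling cell markers summed to 2407 to 2861 CPM in EGF/FGF, 406 to 594 under BMP, and 291 to 307 under BMP/FGF, and all 7 were lower in both quiescent states. All 7 were also lower in BMP/FGF than in BMP, so these RNA levels do not by themselves rank the depth of quiescence as the authors' terms do. The 7 astrocyte markers in the table, several of which NSCs also express, summed to 1438 to 1884, 4135 to 5343 and 7475 to 7702 CPM in the same order. Those of neuroblasts and neurons summed to 591 to 614, 1153 to 1809 and 886 to 952. Map2 made up most of that sum in EGF/FGF, at 538 to 574 CPM. Of the 6 genes tested in that list, 5 rose and 1 fell in each quiescent state. Dcx, among those that rose, was at 0.624 to 2.17 CPM in EGF/FGF, 170 to 396 under BMP, and 47.6 to 54.8 under BMP/FGF. The ependymal list summed to 63.4 to 79.1 CPM in EGF/FGF, 200.4 to 240.2 under BMP, and 203 to 216 under BMP/FGF. The oligodendrocyte lineage list stayed between 1265 and 1892 CPM in all libraries, while the microglial list was at 5.31 to 14.7 and the endothelial list at 2.81 to 7.71, with Csf1r at 0 to 2 counts in every library. In bulk RNA fewer cells of a type and less RNA per cell cannot be told apart, and the part of these marker changes in the results below was not tested.

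Most fatty acid oxidation genes were higher in quiescent than in proliferating NSCs, but by modest amounts. Between BMP and EGF/FGF, 25 of the 38 members rose and 7 fell at an adjusted p under 0.05, in edgeR's quasi-likelihood test with Benjamini-Hochberg adjustment over all tested genes, which is the test behind every adjusted p given here. Of all tested genes 40.8% rose and 38.8% fell in that comparison. The members' median log2 fold change was 0.30, against 0.019 for all tested genes. A rise past a log2 fold change of 1.5 was seen in 3 members (10.9% of all genes), Pdk4, Acsl6 and Acsl3, and a fall past it in 1 (6.95% of all genes), Acsl4. In 21 members all 4 BMP libraries lay above all 4 EGF/FGF libraries and in 4 they lay below (36.3% and 34.8% of all genes).

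Between BMP/FGF and EGF/FGF, 27 members rose and 4 fell (40.9% and 38% of all genes), with a median of 0.40 against 0.022 for all genes. The rises past 1.5 were Pdk4, Acsl6, Acsl3 and Acadsb (4 members, 10.6% of all genes) and the only fall past it was Acsl4 (6.08% of all genes). All 4 BMP/FGF libraries lay above the EGF/FGF libraries in 26 members and below them in 4 (39% and 36.9% of all genes). Both comparisons use the same EGF/FGF libraries.

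The comparison of the 2 quiescent states asks what FGF changes in the presence of BMP. Here 14 members were higher in BMP/FGF and 3 lower (20.1% and 21.3% of all genes), with a median of 0.13 against -0.0036 for all genes. The log2 fold change of 0 members passed 1.5 in either direction, where 0.901% of all genes were higher and 0.684% lower past it. The libraries did not overlap in 10 members that were higher and in 3 that were lower (17.6% and 18% of all genes). The members that rose most were Acsl5, Acsl4, Acadl, Ucp2 and Acsl6, and those that fell were Acsl1, Ppargc1a and Crat.

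**Figure D1:**
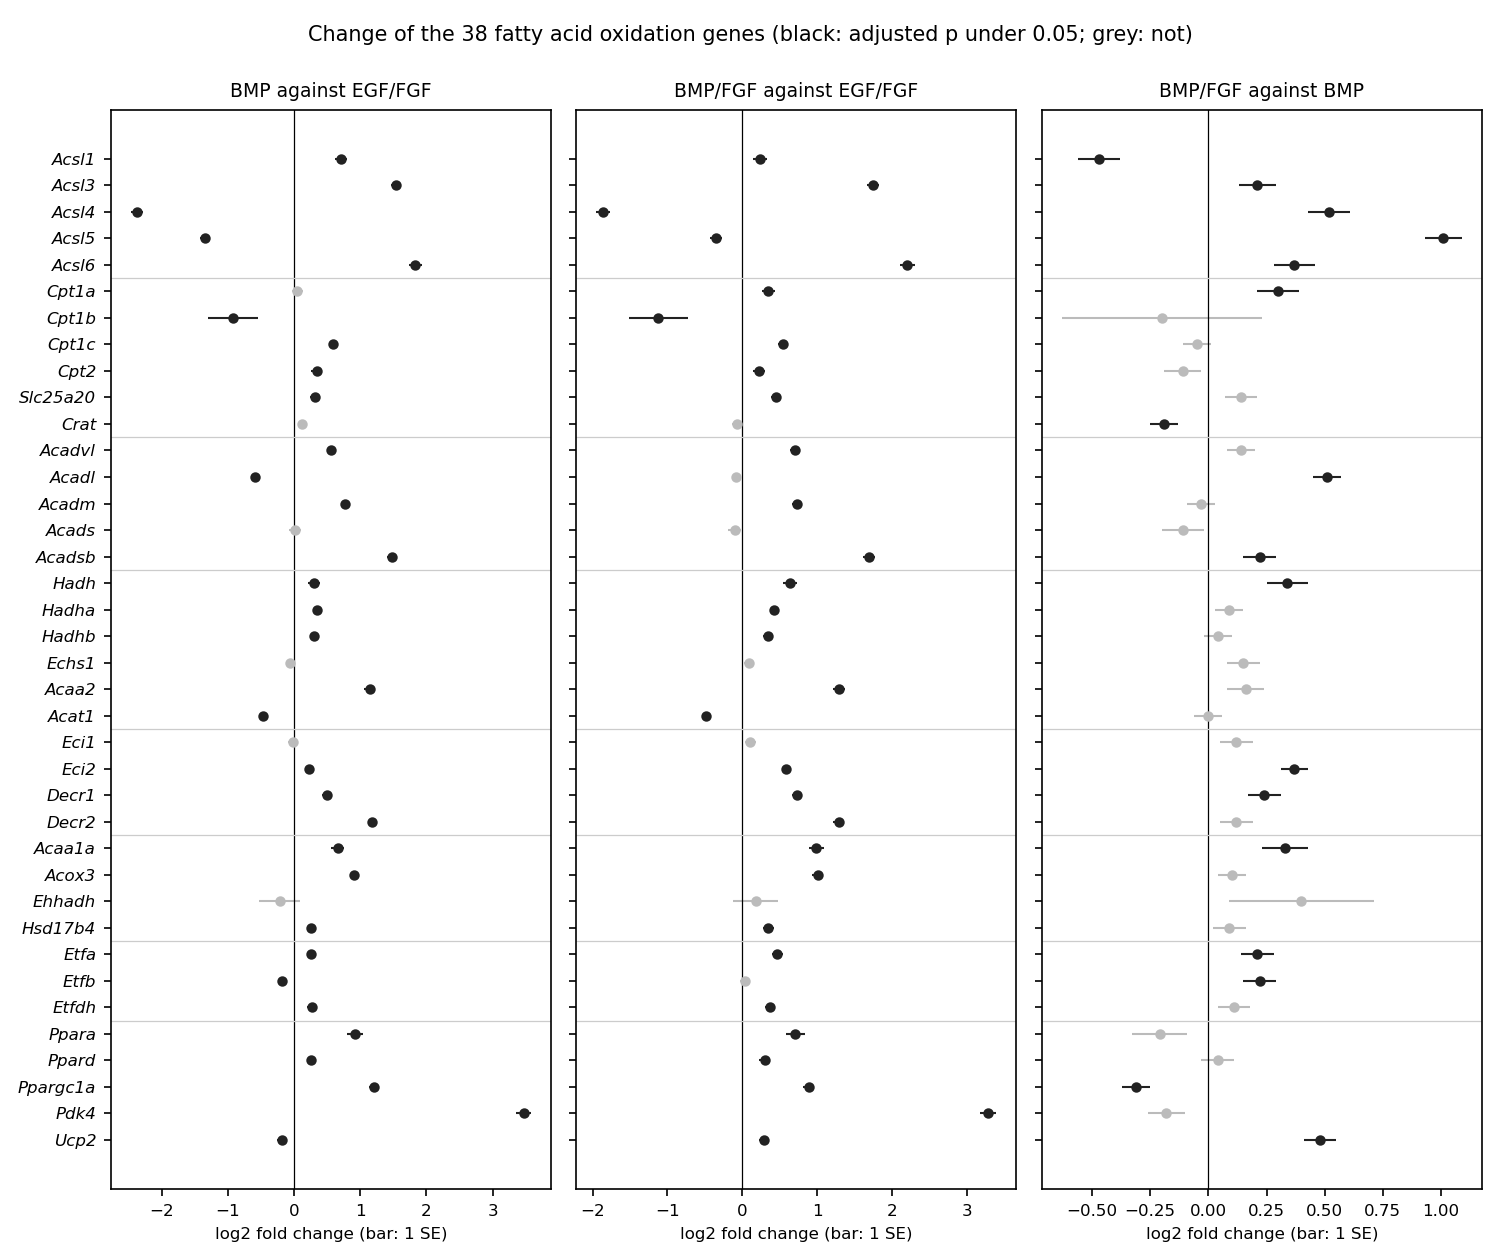
Log2 fold change (x axis, bar 1 SE) of each of the 38 members in the 3 comparisons, ordered by role from activation at the top to regulators at the bottom, with black points for an adjusted p under 0.05 and grey points for the others. The third panel has a narrower axis. Pdk4 stands at 3.47 and 3.29 in the first 2 panels, Acsl4 at -2.38 and -1.86, and Acsl5 at 1.01 in the third.

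The activating enzymes showed the widest split. Long-chain acyl-CoA synthetases join fatty acids to coenzyme A, for oxidation or for membrane and storage lipids. Acsl3 (chr1:78657825-78707743), an enzyme of the endoplasmic reticulum and lipid droplets, was the most abundant member by level per kb in both quiescent states. It measured 483, 440, 373 and 376 CPM in EGF/FGF, 1218, 1160, 1332 and 1119 CPM in BMP, and 1377, 1442, 1422 and 1365 CPM in BMP/FGF. Every quiescent library was above every proliferating one, with rises of 2.90-fold (log2 1.54 ± 0.08 SE, adjusted p = 4.88e-12) and 3.36-fold (1.75 ± 0.08, adjusted p = 9.02e-13). Its further rise of 0.21 ± 0.08 from BMP to BMP/FGF passed the test (adjusted p = 0.034) but was lost on library size scaling (adjusted p = 0.087) and without any 1 of 6 libraries, namely either ANS4 BMP, either BL6 BMP/FGF, ANS4 BMP/FGF replicate 2 or BL6 BMP replicate 2 (adjusted p = 0.0578 to 0.108). Acsl4 (chrX:142317993-142390535), which prefers arachidonic acid and other polyunsaturated chains, went the other way. It measured 189, 192, 200.2 and 208 CPM in EGF/FGF, 45.1, 41.7, 35.4 and 30.0 CPM in BMP, and 54.9, 53.1, 55.4 and 54.3 CPM in BMP/FGF. The 3 conditions did not overlap, with the lowest values in BMP, and the falls were 5.21-fold (log2 -2.38 ± 0.09, adjusted p = 8.38e-14) and 3.63-fold (-1.86 ± 0.09, adjusted p = 1.62e-12).

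Acsl5, found on mitochondria and the endoplasmic reticulum, fell in BMP and stood nearer its proliferating level in BMP/FGF. It measured 77.5, 79.5, 88.8 and 86.7 CPM in EGF/FGF, 35.3, 36.5, 31.6 and 26.9 CPM in BMP, and 66.2, 62.5, 64.6 and 68.2 CPM in BMP/FGF. All 3 groups were separate. The log2 fold change from BMP to BMP/FGF was 1.01 ± 0.08 (adjusted p = 7.26e-08), the largest among the members in that comparison, and BMP/FGF remained 0.35 ± 0.08 below EGF/FGF (log2 -0.35, adjusted p = 0.000751). Acsl6, the synthetase of neural tissue that favours docosahexaenoic acid, measured 27.2, 25.1, 21.9 and 21.7 CPM in EGF/FGF, 102, 110, 68.9 and 65.6 CPM in BMP, and 118, 108, 106 and 108 CPM in BMP/FGF. Its rises were 3.56-fold and 4.62-fold (adjusted p = 6.31e-12 and 5.09e-13), and in BMP the BL6 libraries were well below the ANS4 libraries. Acsl1, the main synthetase of liver, fat and muscle, was scarce, at 8.42 to 9.68 CPM in EGF/FGF, 13.9 to 15.9 under BMP, and 10.4 to 11.7 under BMP/FGF, so it rose in BMP (log2 0.71 ± 0.09, adjusted p = 8.25e-07) and was lower again with FGF (log2 -0.47 ± 0.09, adjusted p = 0.000401). Its rise of 0.24 ± 0.09 from EGF/FGF to BMP/FGF (adjusted p = 0.0219) was lost without ANS4 EGF/FGF replicate 2, ANS4 BMP/FGF replicate 1 or BL6 BMP/FGF replicate 1 (adjusted p = 0.0596 to 0.0913).

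**Figure D2:**
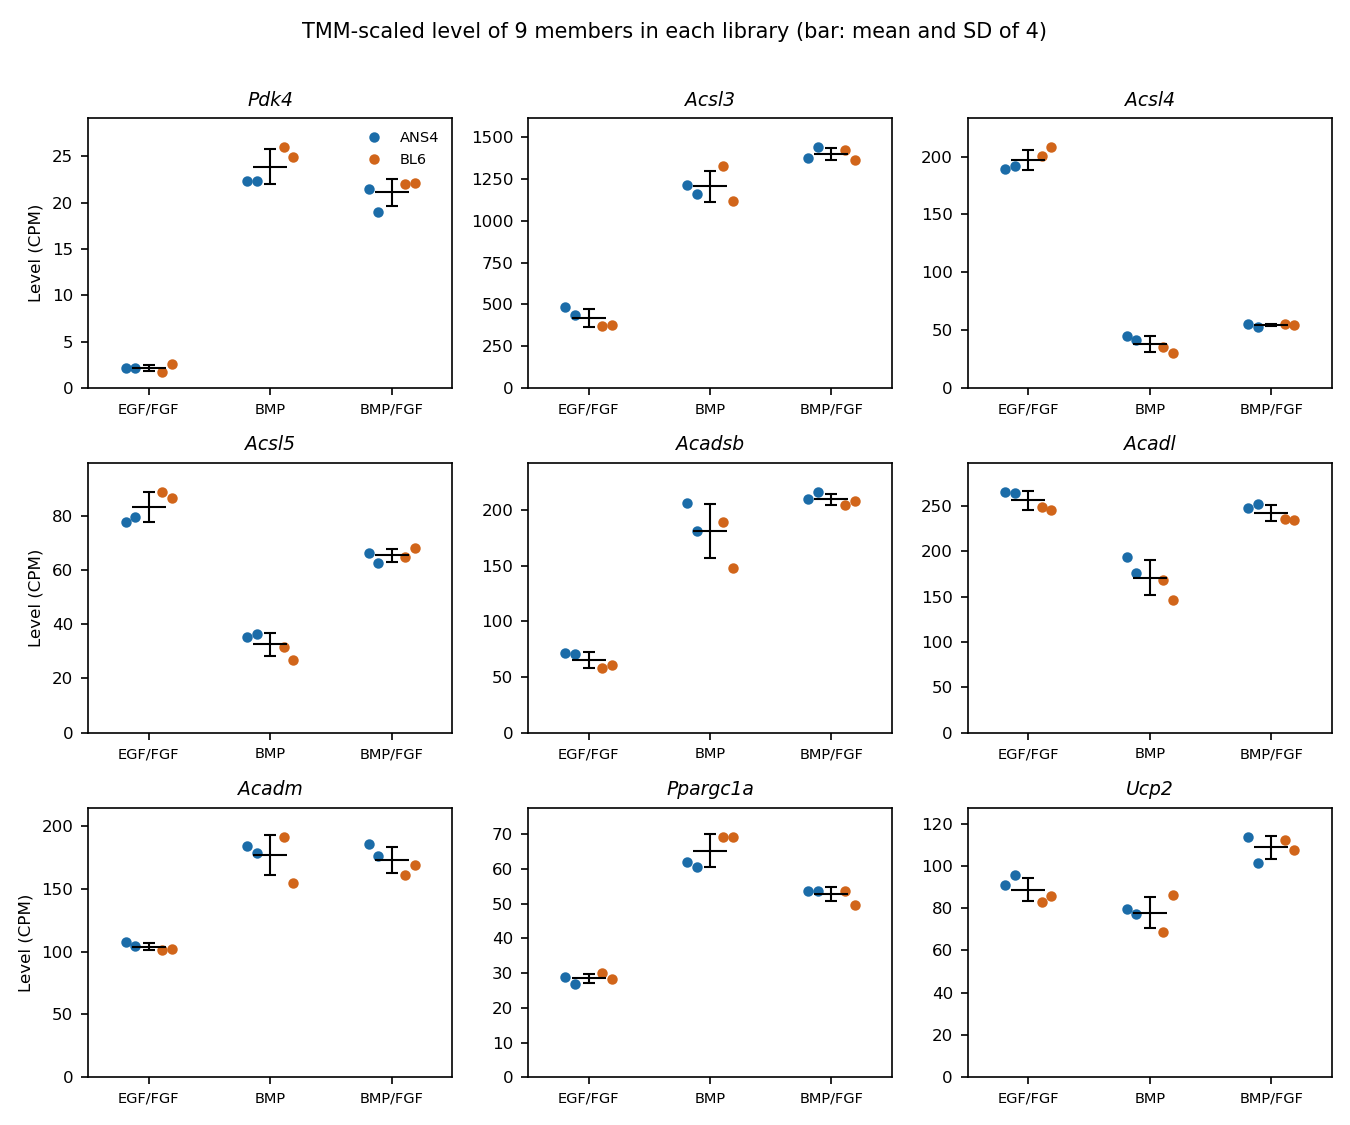
TMM-scaled level (CPM, y axis from 0) of 9 members in the 4 libraries of each condition, ANS4 in blue and BL6 in orange, with the mean and SD of the 4. Pdk4, Acsl3 and Acadsb are high in both quiescent states, Acsl4 is low in both, and Acsl5 and Acadl are low in BMP with BMP/FGF levels of 65.4 and 242 CPM, closer to those in EGF/FGF.

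Levels of different genes were compared per kb of the longest annotated transcript (GENCODE vM21). The 5 synthetases together had 169 ± 11.2 CPM per kb in EGF/FGF (SD, n = 4), 338 ± 23.6 in BMP and 401 ± 8.24 in BMP/FGF. Within that sum, Acsl3 held 62.6% ± 3.77 in EGF/FGF, 90.4% ± 1.78 in BMP and 88.4% ± 0.525 in BMP/FGF. Acsl4 held 22.3% ± 2.33, 2.13% ± 0.345 and 2.57% ± 0.0812, and Acsl5 held 11.7% ± 1.51, 2.27% ± 0.273 and 3.84% ± 0.219 in the same order. The share of Acsl6 was 2.44% ± 0.111, 4.42% ± 1.16 and 4.72% ± 0.274, and Acsl1 stayed at or below 1.07% in every library. The family thus had 1 main member in quiescence and 3 sizeable ones in proliferation. Dividing by the mean length of coding transcripts instead gave Acsl3 59.6%, 86.5% and 83.8%, and put Acsl5 (21.0%) above Acsl4 (13.8%) in EGF/FGF.

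**Figure D3:**
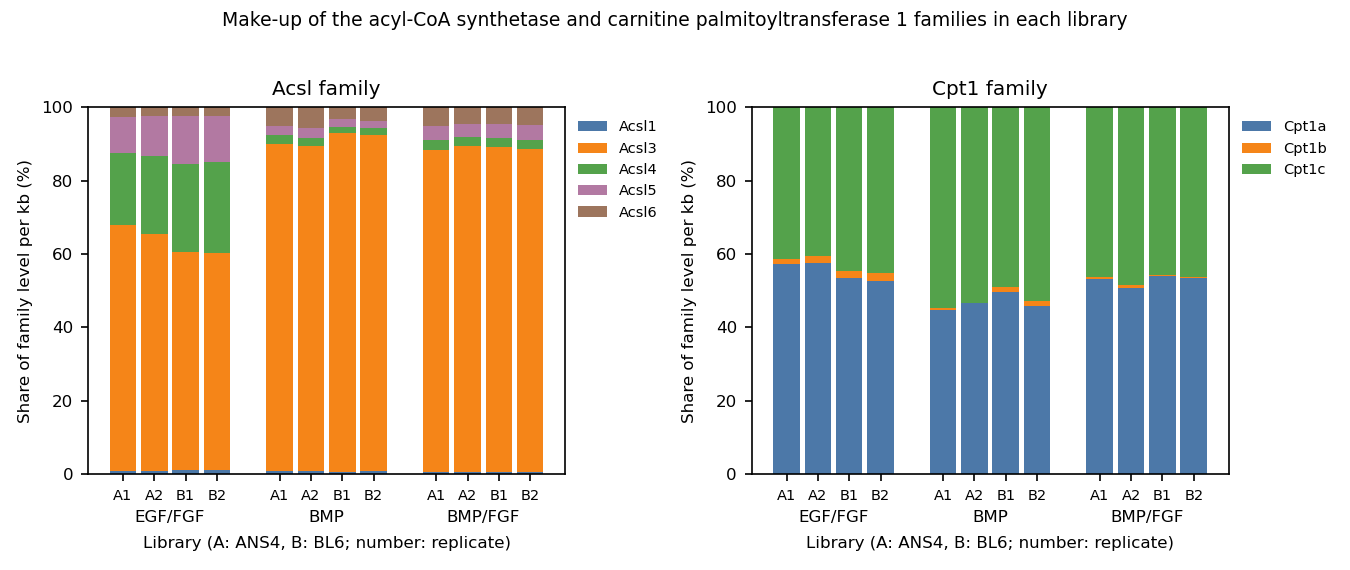
Share (%) of each gene in the summed level per kb of the Acsl family (left) and the Cpt1 family (right), 1 bar per library. The Acsl3 part widens from 59.4 to 66.9% in the EGF/FGF libraries to 88.5 to 92.2% in the BMP libraries, while Cpt1a and Cpt1c share the Cpt1 family in every library.

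The genes of the carnitine shuttle changed by unequal amounts. CPT1 makes acylcarnitines at the outer mitochondrial membrane, SLC25A20 carries them across the inner one and CPT2 turns them back into acyl-CoA. Of the 6 shuttle genes 3 rose and 1 fell in BMP (40.8% and 38.8% of all genes), and 4 rose and 1 fell in BMP/FGF (40.9% and 38% of all genes). Cpt1a (chr19:3322334-3385733) measured 122, 133, 97.1 and 93.5 CPM in EGF/FGF, 112, 120, 114 and 112 CPM in BMP, and 139, 131, 147 and 147 CPM in BMP/FGF. In BMP its values lay between those of the ANS4 and BL6 proliferating libraries (log2 0.05 ± 0.09, adjusted p = 0.615). The BMP/FGF libraries were all above the BMP libraries (log2 0.30 ± 0.09, adjusted p = 0.00864), but overlapped with EGF/FGF (0.35 ± 0.09, adjusted p = 0.00111). Cpt1c, the neuronal form in the endoplasmic reticulum, rose by 0.59 ± 0.06 in BMP and 0.54 ± 0.06 in BMP/FGF (adjusted p = 1.34e-07 and 4.7e-07). Cpt1a made up 55.2% ± 2.59 of the Cpt1 level per kb in EGF/FGF, 46.7% ± 2.06 in BMP and 52.8% ± 1.46 in BMP/FGF (SD, n = 4), nearly all of the rest being Cpt1c. By the mean length of coding transcripts Cpt1a held 59.3%, 50.9% and 56.9%. The order in BMP thus depended on the length used, with Cpt1c at 52.5% by the longest transcript and 48.5% by the mean length. Cpt2 rose by 0.34 ± 0.08 and 0.23 ± 0.08, and Slc25a20 by 0.31 ± 0.07 and 0.45 ± 0.07. The Cpt2 call in BMP/FGF was lost without ANS4 EGF/FGF replicate 1, ANS4 BMP/FGF replicate 1 or BL6 BMP/FGF replicate 2 (adjusted p = 0.0523 to 0.0828). Crat, which makes acetylcarnitine, passed the test only between the quiescent states, at -0.19 ± 0.06 (adjusted p = 0.0285), and did not without either ANS4 BMP library or ANS4 BMP/FGF replicate 2 (adjusted p = 0.0599 to 0.128).

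Cpt1b, the muscle form, had few counts, and its lines went opposite ways. The estimated counts were 38, 52, 45 and 52 in EGF/FGF, 11, 7, 39 and 41 in BMP, and 24, 32, 15 and 9 in BMP/FGF. Both ANS4 libraries were low in BMP and both BL6 libraries were low in BMP/FGF, so the groups over both lines overlapped between the quiescent states. Against EGF/FGF the log2 fold change was -0.92 ± 0.38 in BMP and -1.12 ± 0.39 in BMP/FGF (adjusted p = 0.0331 and 0.0139). The first call was lost without either ANS4 BMP library or replicate 2 of EGF/FGF in either line (-0.921 to -0.611, adjusted p = 0.0631 to 0.123), and the second without either BL6 BMP/FGF library (adjusted p = 0.0509 to 0.0602). The annotation places 2744 of its exon bases in Gm44502, a gene model on the same strand, so reads of the pair may be shared in the counting. In all, 16 members share exon bases with another gene, most of them on the opposite strand, and the sources used here do not say whether counting used strand. On the same strand, Etfb shares 617 bases with Gm45233 and 61 with Mir7051, and Acsl3 shares 244 with Utp14b. Reads of these genes may be shared as well.

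The acyl-CoA dehydrogenases, which take the first electrons in each round, did not move together. Acadm, for medium chains, measured 108, 105, 101 and 102 CPM in EGF/FGF, 184, 178, 191 and 154 CPM in BMP, and 185, 176, 161 and 169 CPM in BMP/FGF. The quiescent libraries were all higher, by 0.77 ± 0.06 and 0.73 ± 0.06 on the log2 scale (adjusted p = 3.91e-09 and 7.94e-09). Acadvl, for very long chains, also rose, by 0.56 ± 0.06 and 0.70 ± 0.06 (adjusted p = 2.45e-07 and 1.28e-08). Acadl, for long chains, had the highest level per kb of the longest transcript of all members in proliferating cells (134 CPM per kb against 106 for Acsl3), but by the mean length of coding transcripts Acsl3 was higher (169 against 134). It measured 265, 264, 249 and 246 CPM in EGF/FGF, 194, 176, 168 and 146 CPM in BMP, and 247, 252, 235 and 234 CPM in BMP/FGF. It was low in BMP alone (log2 -0.59 ± 0.06, adjusted p = 6.69e-08), higher with FGF (0.51 ± 0.06, adjusted p = 4.19e-06), and BMP/FGF differed from EGF/FGF by -0.08 ± 0.06 (adjusted p = 0.228). Acads, for short chains, had log2 fold changes of 0.01 ± 0.09, -0.10 ± 0.09 and -0.11 ± 0.09 in the 3 comparisons, none past the test.

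Acadsb (chr7:131410601-131448944), which oxidises short branched acyl-CoA from isoleucine, had the largest rise of the 5 dehydrogenases. It measured 71.5, 71.1, 57.8 and 60.7 CPM in EGF/FGF, 206, 181, 190 and 148 CPM in BMP, and 210, 216, 205 and 208 CPM in BMP/FGF. All quiescent libraries were at least at 148 CPM and no proliferating one passed 71.5, with log2 fold changes of 1.48 ± 0.08 and 1.69 ± 0.08 (adjusted p = 5.46e-12 and 9.07e-13). BMP/FGF was 0.22 ± 0.07 above BMP (adjusted p = 0.0269), a call lost without ANS4 BMP replicate 2, BL6 BMP replicate 2 or either BL6 BMP/FGF library (adjusted p = 0.0788 to 0.1).

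The later steps of each round moved by unequal amounts, with a thiolase rising most. Hadha and Hadhb code for the subunits of the mitochondrial trifunctional protein and start 86 bases apart on opposite strands of chromosome 5. Hadha measured 286 to 320 CPM in EGF/FGF, 348 to 417 under BMP, and 384 to 416 under BMP/FGF, and Hadhb measured 156 to 163, 179 to 218 and 199 to 207. Their rises were alike in size, 0.34 ± 0.06 and 0.43 ± 0.06 for Hadha against 0.30 ± 0.06 and 0.34 ± 0.06 for Hadhb. Acaa2, the thiolase that ends each round, measured 35.2, 38.6, 28.3 and 28.4 CPM in EGF/FGF, 77.9, 81.4, 63.5 and 64.6 CPM in BMP, and 77.5, 76.8, 80.3 and 83.8 CPM in BMP/FGF, rising 2.20-fold and 2.46-fold (adjusted p = 7.23e-10 and 1.29e-10). Acat1, a thiolase that also serves ketone body and isoleucine metabolism, fell by 0.47 and 0.48 on the log2 scale (SE 0.06 each, adjusted p = 5.33e-07 and 5.36e-07). The hydratase Echs1 passed the test in none of the 3 comparisons. Hadh, the short-chain hydroxyacyl dehydrogenase, rose by 0.30 ± 0.09 and 0.64 ± 0.09 (adjusted p = 0.00513 and 2.95e-06). In BMP the log2 fold change was 0.49 ± 0.07 in ANS4 and 0.09 ± 0.07 in BL6, and the call was lost in the BL6 libraries alone (adjusted p = 0.354).

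Unsaturated chains need isomerases and reductases, and 3 of the 4 measured rose in each quiescent state (40.8% of all genes in BMP and 40.9% in BMP/FGF). Decr2, the peroxisomal dienoyl-CoA reductase, measured 13.9 to 16.4 CPM in EGF/FGF, 32.1 to 35.9 under BMP, and 35.8 to 37.7 under BMP/FGF and rose (log2 1.18 ± 0.07 and 1.29 ± 0.07, adjusted p = 4.36e-11 and 1.2e-11). Its mitochondrial counterpart Decr1 rose by 0.49 ± 0.07 and 0.73 ± 0.07. Eci2 rose by 0.22 ± 0.06 and 0.59 ± 0.06, and was 0.37 ± 0.06 higher in BMP/FGF than in BMP (adjusted p = 6.09e-05), with no overlap. Eci1 passed the test in none of the comparisons.

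Of the 4 peroxisomal members 3 rose in each quiescent state, where 40.8% and 40.9% of all genes rose. Acox3, an oxidase for branched chains, measured 24.9 to 30.7 CPM in EGF/FGF, 48.9 to 53.5 under BMP, and 52.1 to 57.5 under BMP/FGF, and rose (log2 0.91 ± 0.07 and 1.01 ± 0.07, adjusted p = 5.33e-10 and 1.37e-10). Acaa1a, a peroxisomal thiolase, rose by 0.66 ± 0.10 and 0.99 ± 0.10 (adjusted p = 7.59e-06 and 4.08e-08), and its near copy Acaa1b, at a mean of 0.647 to 2.27 CPM, could share reads with it. Hsd17b4, the bifunctional enzyme for branched chains, rose by 0.26 ± 0.07 and 0.35 ± 0.07. Ehhadh, the bifunctional enzyme for straight chains, had only 9 to 21 counts per library, and no difference passed the test (log2 -0.22 ± 0.31, 0.18 ± 0.30 and 0.40 ± 0.31 in the 3 comparisons).

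The electron transfer genes, which pass electrons from the dehydrogenases to the respiratory chain, changed by small amounts. Etfa rose by 0.26 ± 0.07 and 0.47 ± 0.07 and Etfdh by 0.27 ± 0.07 and 0.37 ± 0.07. Etfb was 0.18 ± 0.07 lower in BMP (log2 -0.18, adjusted p = 0.0213, lost without BL6 EGF/FGF replicate 1 or BL6 BMP replicate 2 at 0.0574 and 0.0729) and at 0.04 ± 0.07 in BMP/FGF (adjusted p = 0.556).

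Among the regulators, Pdk4 (chr6:5483351-5496309) had the largest change of all 38 members. PDK4 phosphorylates and inhibits pyruvate dehydrogenase, which limits the entry of glucose carbon, and is a classical PPAR target. It measured 2.17, 2.17, 1.72 and 2.53 CPM in EGF/FGF, 22.3, 22.3, 26.0 and 25.0 CPM in BMP, and 21.4, 19, 22.0 and 22.1 CPM in BMP/FGF. Both lines went the same way, with rises of 11.1-fold (log2 3.47 ± 0.11, adjusted p = 6.87e-15) and 9.81-fold (3.29 ± 0.11, adjusted p = 1.47e-14). The quiescent states differed by -0.18 ± 0.08 (adjusted p = 0.1, or 0.0471 on library size scaling), with all BMP/FGF libraries below all BMP libraries.

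Ppargc1a, the gene of PGC-1alpha, separated all 3 conditions. It measured 28.8, 26.8, 29.9 and 28.5 CPM in EGF/FGF, 62.1, 60.5, 69.3 and 69.3 CPM in BMP, and 53.6, 53.7, 53.7 and 49.7 CPM in BMP/FGF. It rose by 1.20 ± 0.07 in BMP and 0.89 ± 0.07 in BMP/FGF (adjusted p = 1.04e-11 and 7.38e-10), and BMP/FGF was below BMP (log2 -0.31 ± 0.06, adjusted p = 0.000888). Ppara, the receptor most tied to fatty acid oxidation, was scarce, at 3.51 to 3.64 CPM in EGF/FGF, 6.42 to 7.09 under BMP, and 4.97 to 6.87 under BMP/FGF (log2 0.92 ± 0.12 and 0.71 ± 0.13). Ppard, at 38.3 to 54.6 CPM over all libraries, rose by 0.26 ± 0.07 and 0.30 ± 0.07. Ucp2, a carrier of the inner mitochondrial membrane, measured 83.1 to 95.5 CPM in EGF/FGF, 68.5 to 86.0 under BMP, and 102 to 114 under BMP/FGF. It was low in BMP (log2 -0.19 ± 0.07, adjusted p = 0.0211, but 0.0524 to 0.0829 without ANS4 EGF/FGF replicate 2, ANS4 BMP replicate 2 or BL6 BMP replicate 1) and high in BMP/FGF (0.29 ± 0.07, adjusted p = 0.00101), with a difference of 0.48 ± 0.07 between the quiescent states (adjusted p = 3.84e-05).

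Other mitochondrial gene lists did not share the members' direction. Of 21 genes of the TCA cycle and pyruvate dehydrogenase, 2 rose and 17 fell in BMP (40.8% and 38.8% of all genes), with a median of -0.45. In BMP/FGF, 2 rose and 11 fell (40.9% and 38% of all genes), with a median of -0.34. Fh1, the fumarase, fell from a mean of 126 CPM to 56.6 and 66.1 CPM. Of 15 genes of mitochondrial import and pores, 0 rose and 15 fell in BMP (40.8% and 38.8% of all genes), with a median of -0.80. In BMP/FGF, 0 rose and 14 fell (40.9% and 38% of all genes), with a median of -0.69. All 15 log2 fold changes were below 0 in both, the gene short of the test being Tomm7 (-0.19, adjusted p = 0.0946), chosen for mention after its values were seen. The chaperonin genes Hspd1 and Hspe1 led them, with log2 fold changes of -1.62 ± 0.09 and -1.83 ± 0.13 in BMP. Between the quiescent states the medians were near each other, at 0.13 for the members, 0.13 for the TCA list and 0.14 for the import list. The lists were described by these counts and medians and the difference between lists was not tested.

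**Figure D4:**
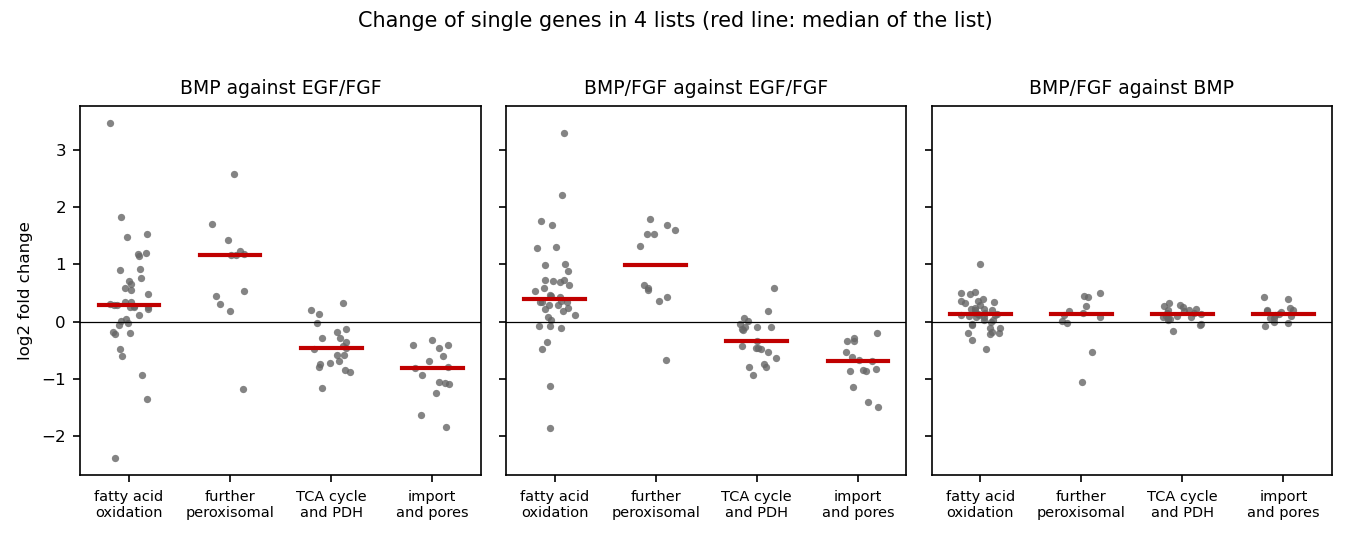
Log2 fold change of single genes (points, scattered sideways for legibility) in 4 lists for the 3 comparisons, with the list's median as a red line. In BMP the medians run from 0.30 for the fatty acid oxidation members and 1.17 for further peroxisomal genes to -0.45 for the TCA list and -0.80 for the import list.

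Genes around the pathway were read from lists of the same kind. Of 12 further peroxisomal genes, 10 rose and 1 fell in BMP (40.8% and 38.8% of all genes), with a median of 1.17. In BMP/FGF, 11 rose and 1 fell (40.9% and 38% of all genes), with a median of 0.98. Abcd2, a peroxisomal importer of very long chains, rose by 2.57 ± 0.10 in BMP and 1.53 ± 0.10 in BMP/FGF, and was 1.05 lower in BMP/FGF than in BMP (log2 -1.05 ± 0.09, adjusted p = 8.83e-08). Pecr, a peroxisomal reductase of chain elongation, was the gene that fell (-1.18 ± 0.11 and -0.67 ± 0.10). Among 12 further acyl-CoA dehydrogenases and thioesterases, 7 rose and 1 fell in BMP (40.8% and 38.8% of all genes). In BMP/FGF, 8 rose and 1 fell (40.9% and 38% of all genes). Acad11 and Acad12 rose by 1.89 ± 0.07 and 1.96 ± 0.12 in BMP, and Acot9 was the gene that fell (-1.90 ± 0.17).

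Genes of ketone body metabolism did not move together. Bdh2 rose by 3.30 ± 0.15 and 2.46 ± 0.16. Oxct1, an enzyme that uses ketone bodies, fell by 0.47 and 0.44 on the log2 scale.

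Among 15 tested PPAR partners, coactivators and further targets, 9 rose and 5 fell in each quiescent state (60% and 33.3%). Of all genes, 40.8% rose and 38.8% fell in BMP, and 40.9% rose and 38% fell in BMP/FGF. Pdk2, a second pyruvate dehydrogenase kinase, rose from a mean of 27.9 ± 4.29 CPM to 179 ± 19.1 and 137 ± 7.90 (SD, n = 4). Ppargc1b, the sister coactivator of Ppargc1a, went the opposite way to it, with log2 fold changes of -2.43 ± 0.20 and -2.68 ± 0.21 and a mean of 8.05 CPM in EGF/FGF. Of 10 tested genes of malonyl-CoA and AMPK control, 4 rose and 2 fell in BMP, and 4 rose and 3 fell in BMP/FGF. The share that rose (40% in each) was near that of all genes (40.8% and 40.9%). The share that fell was 20% and 30%, against 38.8% and 38% of all genes. Acaca, which makes the CPT1 inhibitor malonyl-CoA, fell (-0.48 ± 0.06 and -0.54 ± 0.06), and Prkab2, an AMPK subunit, rose by 0.63 ± 0.09 and 1.15 ± 0.09.

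The 2 lines did not respond alike in every member. A line by condition interaction passed an adjusted p of 0.05 in 7 members between BMP and EGF/FGF (9.02% of all genes), in 3 between BMP/FGF and EGF/FGF (4.98%) and in 7 between BMP/FGF and BMP (13.5%). The largest was Cpt1b between the quiescent states, with a log2 fold change of 1.59 ± 0.38 in ANS4 and -1.62 ± 0.34 in BL6 (difference -3.21 ± 0.51, adjusted p = 0.000661). Acsl6 changed by 0.09 ± 0.07 in ANS4 and 0.67 ± 0.07 in BL6 between BMP and BMP/FGF (adjusted p = 0.00111). Hadh likewise changed by 0.08 ± 0.07 in ANS4 and 0.61 ± 0.07 in BL6 (adjusted p = 0.00233). It measured 140, 152, 106 and 103 CPM in BMP, so the BL6 libraries stood near the proliferating level of 96.2 to 108 CPM.

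Cpt1a differed between the lines against EGF/FGF. It rose by 0.63 ± 0.07 from EGF/FGF to BMP/FGF in BL6 and changed by 0.09 ± 0.07 in ANS4 (adjusted p of the difference 0.00316), the proliferating BL6 libraries being the lowest of all. Acsl4 fell further in BL6 (-2.64 ± 0.08) than in ANS4 (-2.13 ± 0.08) in BMP (adjusted p = 0.00638). In the BMP libraries the marker lists differed by line as well: the neuroblast and neuron list summed to 1633 to 1809 CPM in BL6 and 1153 to 1240 in ANS4, the cycling list to 524 to 594 and 406 to 424, and the astrocyte list to 4135 to 4288 and 5213 to 5343. Their part in the line differences was not tested.

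**Figure D5:**
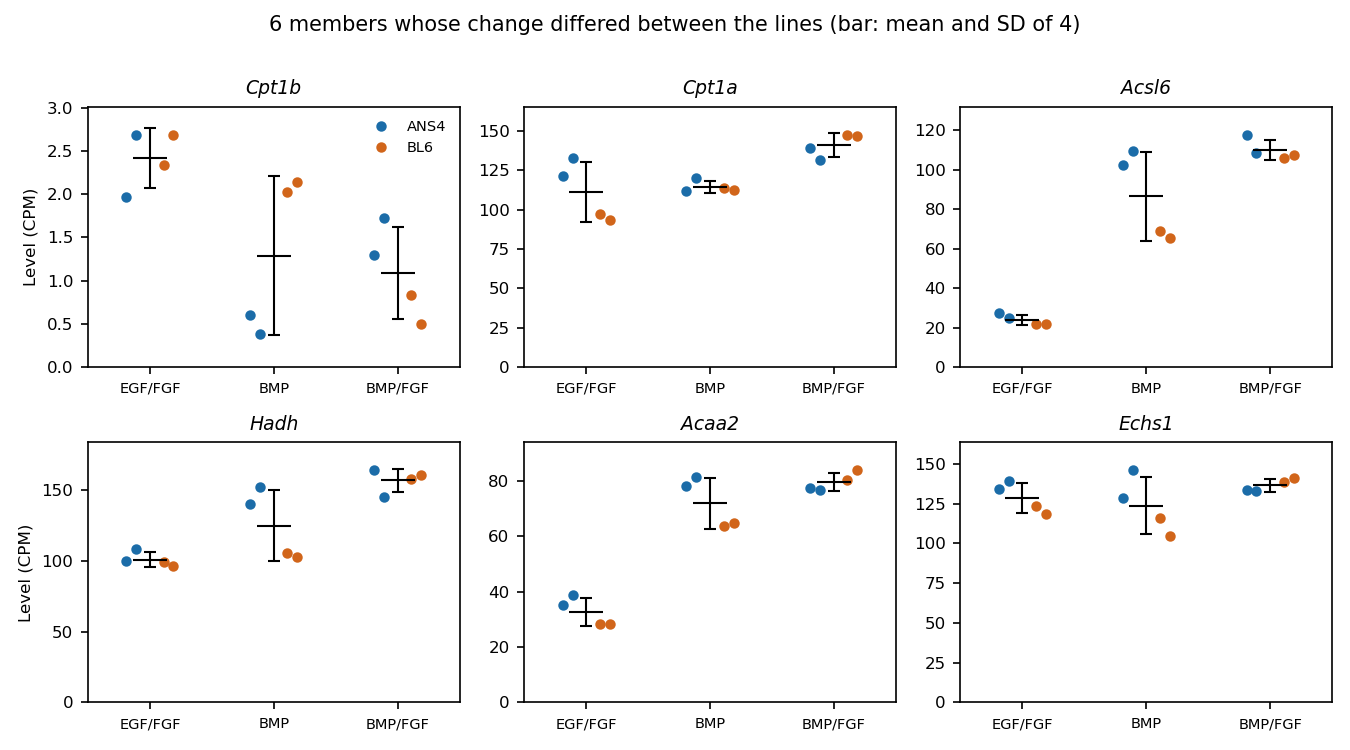
TMM-scaled level (CPM, y axis from 0) of 6 members whose change differed between the lines, ANS4 in blue and BL6 in orange, with the mean and SD of the 4 libraries. In BMP, Acsl6, Hadh, Acaa2 and Echs1 are lower in BL6 than in ANS4, and Cpt1b is higher in BL6. Acsl6, Acaa2, Echs1 and, slightly, Hadh are also lower in BL6 in EGF/FGF.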

How the data were processed

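RNA-seq libraries of 12 NSC cultures were grouped by the condition, line and replicate number in their labels. The authors trimmed reads with Trim Galore 0.5.0, quantified them with kallisto 0.44.0 against an mm10 transcriptome and summed them to genes with Tximport. The estimated counts were deposited by the authors, rounded to integers. Log2 values from the regularized logarithm of DESeq2 (1.27.32 in the submitters' notes) were also deposited and served only for an alternative. The annotation release used for counting is not given in the sources used here. Of the per-sample columns in the tables, 0 belonged to other samples.

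Genes were kept by edgeR's filterByExpr, scaled by TMM and fitted by quasi-likelihood (glmQLFit, glmQLFTest, two-sided) on all 12 libraries with condition and line as terms, and with their interaction for line differences. P-values were adjusted by Benjamini-Hochberg over 13312 genes, with a threshold of 0.05. The count totals limit precision: 3 counts equal 0.155 to 0.168 CPM. The SE of a fold change is its size over the square root of F. Levels per kb used the longest transcript in GENCODE vM21 on GRCm38, the build of the files. The steps were tested on simulated data. Tools were R 4.3.3, edgeR 4.0.16, limma 3.58.1, DESeq2 1.42.0, Python 3.11.15, pandas 2.3.3, numpy 2.4.6 and matplotlib 3.10.9.

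The members, lists, thresholds and tests were chosen with earlier results of these data known. Named were a set of members fixed by role, the 5 largest rises and 5 largest falls per comparison, members with a line difference, and at most 2 rises and 2 falls per other list. Some further members are named to account for each role. Some listed genes are not reported here. No pair of libraries was alike enough to be 1 library deposited again. The alternatives were a replicate block, a fit without the line term, the unfiltered genes, scaling by library size or by DESeq2 size factors, the Wald test of DESeq2, a fit of just the 8 libraries in a comparison, the lines apart, each library left out, limma-trend on the log2 values, and mean coding transcript length.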

Additional observations from a re-analysis of the deposited data

Results flagged for a closer look

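In 5 of 114 groups of 4 libraries, 1 group for each member and condition, the highest or lowest library stood apart by Dixon's criterion, which flags about 1 group in 20 by chance. In ANS4 BMP/FGF replicate 2, Hadha was at 384 CPM, against 413 to 416 in the other libraries of that condition. Ehhadh was at 0.516 CPM in BL6 EGF/FGF replicate 2 and 0.88 to 0.936 in the others. In ANS4 BMP/FGF replicate 1, Etfb was at 56.9 CPM, against 49.0 to 50.2 in the others. Etfdh was at 85.4 CPM in BL6 BMP replicate 2 and 102 to 104 in the others. Ppargc1a was at 49.7 CPM in BL6 BMP/FGF replicate 2 and 53.6 to 53.7 in the others.

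The change differed between the lines in 17 tests of 11 members, by edgeR's interaction test with Benjamini-Hochberg adjustment, each difference being the log2 fold change in BL6 minus that in ANS4. From EGF/FGF to BMP the differences were 0.34 for Acsl3, -0.51 for Acsl4, -0.46 for Acsl5, -0.39 for Acsl6, 0.38 for Cpt1a, 1.94 for Cpt1b and -0.40 for Hadh. From EGF/FGF to BMP/FGF they were 0.54 for Cpt1a, 0.47 for Acaa2 and 0.56 for Acaa1a. From BMP to BMP/FGF they were 0.43 for Acsl4, 0.57 for Acsl6, -3.21 for Cpt1b, 0.53 for Hadh, 0.28 for Hadha, 0.38 for Echs1 and 0.40 for Acaa2. Those of Acsl4 from EGF/FGF to BMP, of Cpt1a from EGF/FGF to BMP/FGF, and of Acsl6, Cpt1b and Hadh from BMP to BMP/FGF passed the threshold in all 17 alternatives run for them. The other 12 were lost in at least 1 of 17. The difference of Acsl3 was lost in 15 (adjusted p up to 0.182), those of Acsl6 in BMP and Hadha in 7 each (up to 0.143 and 0.176), those of Acaa1a and Acaa2 in BMP/FGF in 5 each (up to 0.107 and 0.0839), and the rest in 1 to 4.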

How the results depend on the processing

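The counts of members that rose or fell stayed within 1.5 times in every alternative but 1: in ANS4 alone FGF added to BMP raised 8 members, not 14. Of the members' calls, 24 of 32 (BMP), 27 of 31 (BMP/FGF) and 8 of 17 (BMP/FGF against BMP) held in every alternative. For BMP the lost calls were Cpt1b, Hadh, Hsd17b4, Etfa, Etfb, Etfdh, Ppard and Ucp2, for BMP/FGF they were Acsl1, Cpt1a, Cpt1b and Cpt2, and between the quiescent states Acsl3, Acsl6, Crat, Acadsb, Hadh, Decr1, Acaa1a, Etfa and Etfb. Medians of the members in BMP were 0.363 in ANS4 alone, 0.256 in BL6 alone and 0.277 by limma-trend, and 0.255 to 0.329 with 1 library left out. In BMP/FGF they were 0.374 on library size, 0.334 in ANS4, 0.504 in BL6, 0.368 by limma-trend and 0.371 to 0.443 with 1 library left out. Between the quiescent states they were 0.088 on library size, 0.0586 in ANS4, 0.222 in BL6 and 0.0967 to 0.163 with 1 library left out. Past 1.5, 2 members fell in BMP in each line alone, 2 fell in BMP/FGF in BL6 alone and 1 to 2 with 1 library left out (2 without ANS4 BMP/FGF replicate 2), and between the quiescent states 1 was higher in ANS4 alone and 1 lower in BL6 alone.

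Members with a line difference numbered 4 in BMP and 6 in BMP/FGF with only the 8 libraries compared. With 1 library left out the count ranged from 2 to 9 for BMP, 1 to 4 for BMP/FGF and 4 to 14 between the quiescent states. The count in BMP was 2 to 4 without either ANS4 EGF/FGF library, either BL6 EGF/FGF library or ANS4 BMP replicate 2. That in BMP/FGF was 1 without ANS4 EGF/FGF replicate 2, BL6 EGF/FGF replicate 1, ANS4 BMP/FGF replicate 2 or BL6 BMP/FGF replicate 2. Between the quiescent states it was 14 without BL6 BMP replicate 1 and 4 without ANS4 BMP/FGF replicate 2 or BL6 BMP/FGF replicate 2. The replicate block gave 25 higher and 6 lower members in BMP, 27 and 4 in BMP/FGF, 13 and 2 between the quiescent states, and 5, 3 and 7 line differences. The labels do not say whether same-numbered replicates were cultured together, and the main fit treated them as unpaired. Their deviations correlated at -0.0714 to 0.0513 over 13312 genes. With a single difference between replicates per line and condition, this cannot show whether they were paired.

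Of 114 member fold changes 19 changed sign in some alternative, among them 0 that passed the test as reported, and the cause was not tested. Only Cpt1b between the quiescent states, at -0.20, passed the test with the other sign, at 1.59 in ANS4 alone (adjusted p = 0.00647 by edgeR), and it was -0.568 to 0.13 with 1 library left out, above 0 without either BL6 BMP library or BL6 BMP/FGF replicate 2. List medians reversed as follows. The carnitine shuttle median there, -0.082, was 0.0259 in BL6 alone and -0.0847 to 0.036 with 1 library left out, and the median of the hydratase, hydroxyacyl dehydrogenase and thiolase genes, 0.12, was -0.0466 in ANS4 alone. The median of the uptake and storage list in BMP, 0.092, was -0.0541 in ANS4 alone and -0.0864 to 0.299 with 1 library left out. The median of all tested genes was -0.00439 on library size and -0.00215 with the 8 libraries compared in BMP/FGF, and between the quiescent states 0.00151 with no filter, 0.000188 in ANS4 alone and -0.0119 to 9.84e-05 with 1 library left out. Mean coding transcript length moved 86 of 114 levels per kb and 21 of 24 family shares by more than 1 SD. Counts were lowest for Cpt1b and Ehhadh, and leaving out a library leaves 1 for that line and condition, assumed to vary like the rest.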

Other observations

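Among 13 genes of fatty acid uptake, binding, storage and lipolysis, 6 rose and 4 fell in BMP and 6 rose and 2 fell in BMP/FGF, against 40.8% and 38.8% of all genes in BMP and 40.9% and 38% in BMP/FGF, in the same edgeR test with Benjamini-Hochberg adjustment. Mgll, the monoacylglycerol lipase, had means of 12 ± 0.628 CPM in EGF/FGF, 94.6 ± 21.1 in BMP and 115 ± 7.44 in BMP/FGF (SD, n = 4). Slc22a5, the carnitine transporter of the cell membrane, rose by 1.34 ± 0.09 and 1.25 ± 0.09 on the log2 scale. The fatty acid binding protein gene Fabp7, also a marker of radial glia, was far more abundant and moved the other way. It measured 2356, 2595, 2502 and 2184 CPM in EGF/FGF, 665, 557, 402 and 277 CPM in BMP, and 1528, 1469, 1306 and 1238 CPM in BMP/FGF, so that the 3 conditions did not overlap. The log2 fold change of Fabp7 was -2.39 ± 0.14 in BMP, -0.81 ± 0.14 in BMP/FGF and 1.58 ± 0.14 between them (adjusted p = 3.55e-11, 2.97e-05 and 1.3e-07). Cd36, a fatty acid translocase, fell in both quiescent states, by 1.63 and 1.56 on the log2 scale.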
